A study of Mus musculus with 6 samples.

Results

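The T cell receptor (TCR) loci were examined as all peaks of 5 deposited peak lists that touched 1 of 3 windows on the mouse mm9 build. These were the β locus on chromosome 6, 40800000 to 41550000, the α/δ locus on chromosome 14, 52900000 to 54900000, and the γ locus on chromosome 13, 19200000 to 19500000. Members were chosen by position alone, but the loci themselves were selected on peak scores and lists of these data, so counts and scores below are given as descriptions. The windows held 156 of the 74959 peaks of the 5 lists, with 76 in β, 67 in α/δ and 13 in γ. The peaks came from chromatin immunoprecipitation and sequencing (ChIP-seq), in which DNA bound by a protein or carrying a histone mark is pulled down with an antibody and sequenced.

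All cells were CD24+ γδ T cells sorted from the thymus of C57BL/6 mice of the genotype TCRbeta KO.Sox13 ECFP KI/+. They thus lacked a functional TCRβ gene and carried a cyan fluorescent reporter in 1 of the Sox13 alleles. Cells with a high reporter signal (CFPhi) are called Sox13hi, and those with a low or no signal (CFPlo/-) Sox13lo. SOX13, an HMG-box transcription factor, was mapped in Sox13hi cells, and histone H3 trimethylated on lysine 4 (H3K4me3) or lysine 27 (H3K27me3) in both populations. The age of the mice, the number of animals pooled and the part of the β locus that the knockout allele removes were not given in the sources used here. Each of the 5 groups is 1 library, so no difference between lists has a replicate check and no test was made. The labels also list an input library, made from both populations, which was not analysed here, so the signal that these sites give without an antibody is unknown. The lists carry no expression, and the labelled cell type could not be checked against marker levels.

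TCR chains are built from separate variable (V), diversity (D), joining (J) and constant (C) gene segments, which are cut and joined in developing lymphocytes. Thymocytes of the γδ lineage express a γ and a δ chain. The δ segments lie inside the α locus, so joining a V segment to a J segment of the α chain deletes them. H3K4me3 marks active promoters and is bound by the RAG2 subunit of the recombinase that cuts the segments. H3K27me3 is laid down by Polycomb repressive complex 2 and is common at silenced genes. In the RefSeq gene table of GRCm38, which is another build and was used only for names and order, the β locus runs from Trbv1 to Trbv31. It has 22 V segments and 13 V pseudogenes, 2 D, 13 J and 2 C segments, and 18 other genes between them, among them the trypsinogen genes Prss1, Prss2, Try4 and Try5. The α/δ locus runs from Trav1 to Trac and holds 119 V segments, 53 J segments, 2 D segments and 2 C regions, Trdc and Trac. The olfactory receptor gene Olfr1510 precedes it and Dad1 follows it. The γ locus runs from Trgv7 to Trgc4, with 7 V, 4 J and 4 C segments and no other gene between them. Stard3nl follows it. Positions in mm9 were not assigned to single segments, and peaks are named by position.

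Each peak has a score from the authors, whose definition is not given in the sources used here. It was used to rank peaks and to set sites side by side within 1 list, and scores of different lists were not compared. Rank 1 is the highest score, and "the top 10% of a list" means the peaks with the best ranks that make up 10% of it.

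**Figure D1:**
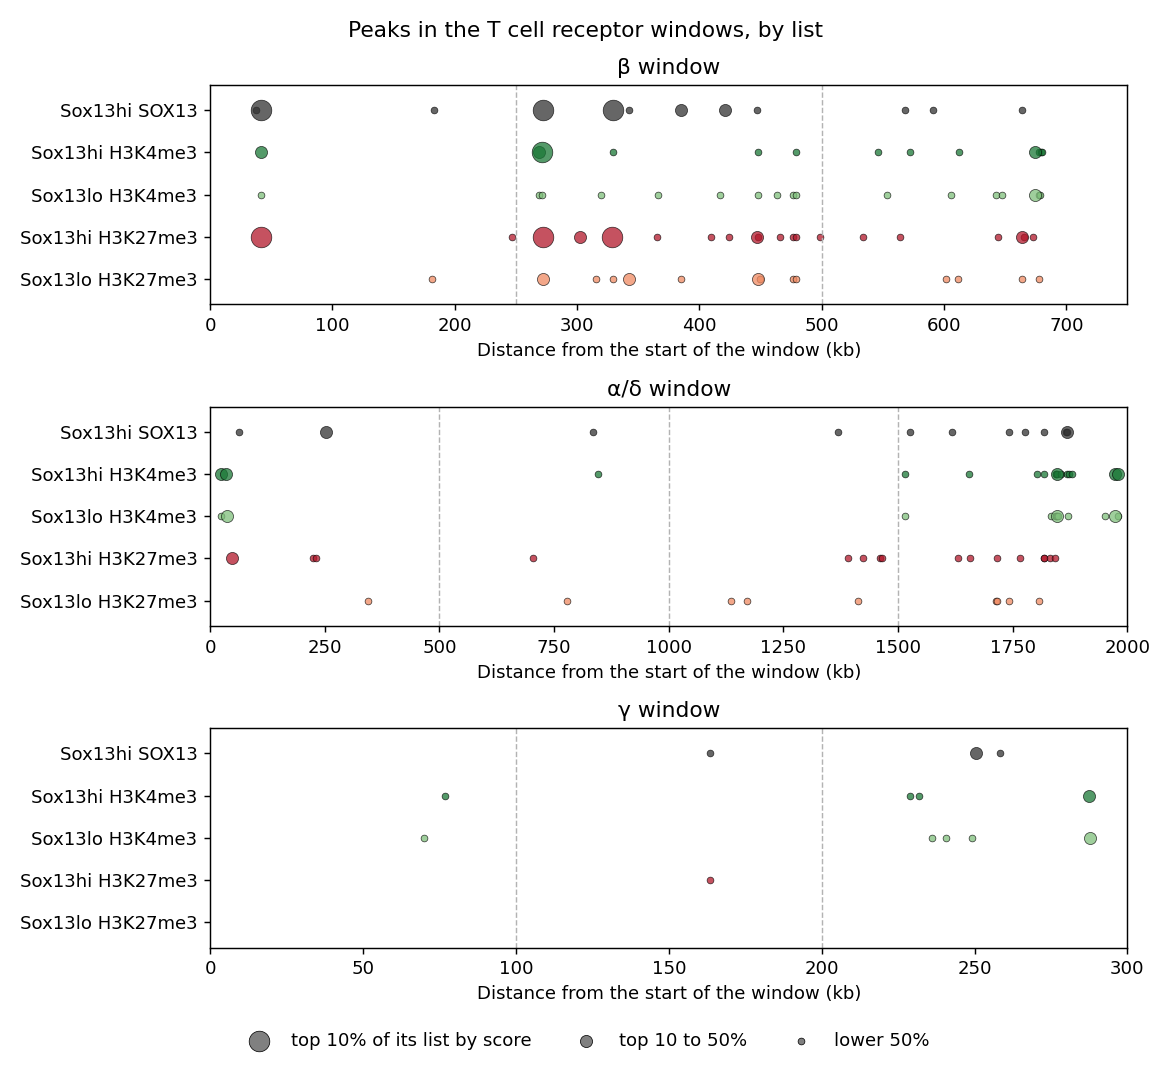
Peaks of the 5 lists (rows) in the β, α/δ and γ windows, by distance of the peak's midpoint from the start of the window in kb. Each point is 1 peak, point size gives its score rank in its own list, and dashed lines divide the windows into equal parts. The largest points, in the top 10% of their list, are all in the β window and all from Sox13hi lists.

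The β window held the most peaks for its length. SOX13 had 12 peaks there, H3K4me3 13 in Sox13hi and 17 in Sox13lo, and H3K27me3 20 in Sox13hi and 14 in Sox13lo. Per Mb this was 3.0 times the density of SOX13 peaks on the whole of chromosome 6 (95% exact Poisson interval 1.55 to 5.25). The ratio was 2.44 (1.30 to 4.17) and 3.63 (2.12 to 5.81) for H3K4me3, Sox13hi first, and 5.06 (3.09 to 7.81) and 7.38 (4.03 to 12.4) for H3K27me3. These intervals cover counting error only and treat peaks as independent, which neighbouring peaks are not. All 5 lists were denser in the β window than on the whole chromosome by this measure, which counts peaks of any score. With each list cut to its top 50%, the β window held 5 SOX13 peaks. H3K4me3 then had 4 peaks in Sox13hi and 1 in Sox13lo, down from 17, and H3K27me3 had 6 and 3. Density ratios were not computed for that cut.

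In the α/δ window the counts were 12 for SOX13, 17 and 13 for H3K4me3 and 16 and 9 for H3K27me3, Sox13hi first. Their density relative to chromosome 14 was 1.34 (0.692 to 2.34) for SOX13, 1.43 (0.831 to 2.28) and 1.24 (0.659 to 2.12) for H3K4me3, and 1.73 (0.988 to 2.81) and 2.38 (1.09 to 4.51) for H3K27me3. The larger Sox13hi count of H3K4me3 turned when the longer list was cut by score to the length of the shorter one, with 11 peaks in Sox13hi and 13 in Sox13lo. That cut removed peaks from the Sox13hi list only. With each list cut to its top 50%, the H3K4me3 counts were 5 in Sox13hi and 3 in Sox13lo. Of the 5 intervals, only that of Sox13lo H3K27me3 lay above 1. Its 9 peaks were all in the lower 50% of their list, and none overlapped a Sox13hi H3K27me3 peak. These intervals have the same limits as those of β. The γ window had 3 SOX13 peaks, 4 and 5 H3K4me3 peaks, 1 H3K27me3 peak in Sox13hi and none in Sox13lo. With so few peaks, each γ interval included a ratio of 1.

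Peaks were unevenly spread within the loci. In α/δ, 45 of the 67 peaks fell in the last of 4 equal parts, 54400001 to 54900000. In the gene order of GRCm38 the δ D, J and C segments, Trdv5, the α J segments and Trac come last in this locus, before Dad1. Peaks were not assigned to any of these. That part held 14 of 17 Sox13hi and 11 of 13 Sox13lo H3K4me3 peaks and 8 of 12 SOX13 peaks, but 8 of 16 Sox13hi and 4 of 9 Sox13lo H3K27me3 peaks. The second part had 4 peaks and the third 8, none of them Sox13lo H3K4me3. The longest stretch without a peak in any list ran for 359 kb from 53244550. In β, the 3 equal parts held 8, 41 and 27 peaks. A stretch of 139 kb from 40842250 was free of peaks, and so were the last 70.0 kb of the window. The γ peaks were split 2, 2 and 9 over its 3 equal parts.

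The high scores were all in β. In the windows 3 SOX13 peaks, 3 Sox13hi H3K27me3 peaks and 1 Sox13hi H3K4me3 peak were in the top 10% of their lists, a range that holds 10.1%, 10% and 10% of the whole lists. No Sox13lo peak of the windows was in that range, which holds 10% of the H3K4me3 and 9.99% of the H3K27me3 list. Of the members, 8 of 27 SOX13 peaks, 10 of 34 and 5 of 35 H3K4me3 peaks, and 7 of 37 and 3 of 23 H3K27me3 peaks were in the top 50%, Sox13hi first, against 48.9%, 50%, 50%, 49.9% and 50.2% of the lists. Most members thus ranked low. The median member stood at 64.6% of the SOX13 list, at 75.4% and 86.4% of the H3K4me3 lists and at 76.0% and 85.1% of the H3K27me3 lists.

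**Figure D2:**
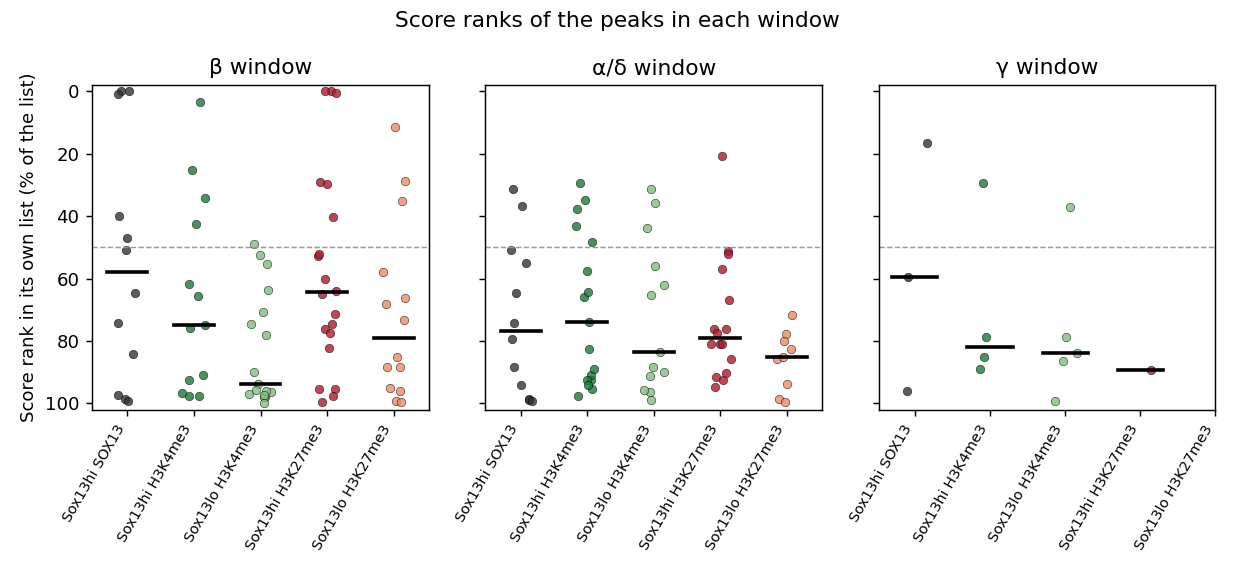
Score rank of each peak of the β, α/δ and γ windows as a percentage of its own list, with the best rank at the top. Points are single peaks, spread sideways for clarity, thick bars are medians and the dashed line is the middle of the list. The medians lie below the middle in each window and list that has a peak, and the ranks near 0% are SOX13 and Sox13hi H3K27me3 peaks in β.

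The 156 peaks were joined into 111 sites wherever peaks of any list overlapped by at least 1 bp. Of these sites, 83 were called in 1 list only (74.8%, against 65.6% of the 49268 sites of the genome), 20 in 2 lists, 3 in 3, 3 in 4 and 2 in all 5. Sites called in all 5 lists made up 1.80% (95% exact binomial interval 0.219 to 6.36%) of the sites in the windows and 0.558% of those in the genome, which lies inside that interval. Both were in β. A site that SOX13 and opposing histone marks all enrich can come from non-specific enrichment, which was not tested because the input library was not used. In α/δ and γ no site was called in more than 2 lists.

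The first of the 2 sites lay on chromosome 6, 41071301 to 41072199. The SOX13 peak there, 41071751 to 41072049, had a score of 523 and rank 4 of 13807. The Sox13hi H3K27me3 peak at 41071601 to 41072199 scored 1843, the highest of its 14842 peaks. Sox13hi H3K4me3 scored 181, rank 713.5 of 20444, where a rank that is not whole stands for tied scores. In Sox13lo, H3K4me3 scored 46.0, rank 10232.5 of 18471, and H3K27me3 scored 73.8, rank 840.5 of 7395. The site was thus in the top 3.49% of each Sox13hi list, at 55.4% of the Sox13lo H3K4me3 list and at 11.4% of the Sox13lo H3K27me3 list. Among the 275 sites of the genome called in all 5 lists it ranked 1 by SOX13 and by Sox13hi H3K27me3, 15 by Sox13hi H3K4me3, 119 by Sox13lo H3K27me3 and 173 by Sox13lo H3K4me3.

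The second, 41246851 to 41248199, ranked low among the 275 sites, at 258.5 by SOX13, 264.5 and 239.5 by H3K4me3 and 245.5 and 200 by H3K27me3, Sox13hi first. SOX13 scored 5.75 there, against a median of 10 over the 275 sites, and H3K4me3 scored 7 in Sox13hi and 19.8 in Sox13lo, against 52.8 and 62.0. H3K27me3 was called as 2 peaks in Sox13hi, with scores of 24.5 and 14, and as 1 broader peak of 1200 bp in Sox13lo, with a score of 41.0, against medians of 74 and 63.5. The SOX13 peak, 41247201 to 41247549, did not touch the Sox13hi H3K4me3 peak, which began at 41247751. The site counts as called in all 5 lists because the Sox13lo peaks span both.

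A pair of further β sites carried high Sox13hi scores without being in all 5 lists. At 40841651 to 40842249 SOX13 scored 222 (rank 14), Sox13hi H3K27me3 857 (rank 3), Sox13hi H3K4me3 80.5 (rank 5188.5) and Sox13lo H3K4me3 23.8 (rank 13044.5). The nearest Sox13lo H3K27me3 peak was 138751 bp away. At 41128501 to 41129399 SOX13 scored 39.0 (rank 116), Sox13hi H3K27me3 182 (rank 97) and Sox13hi H3K4me3 12.5 (rank 15292). Sox13lo H3K27me3 scored 7.25 there (rank 6526.5) and Sox13lo H3K4me3 had no peak. Only the Sox13lo list of 1 mark was missing at each of the pair, H3K27me3 at the first and H3K4me3 at the second.

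The 3 sites kept the same order in every list that called more than 1 of them. Within the SOX13 list the score at 41071301 was 2.35 times that at 40841651 and 13.4 times that at 41128501. The same ratios were 2.25 and 14.5 for Sox13hi H3K4me3, and 2.15 and 10.1 for Sox13hi H3K27me3. In Sox13lo, H3K4me3 gave 1.94 for the first pair and H3K27me3 10.2 for the second. The scale of the score is not known, so a ratio of scores is not a ratio of signal. The 3 sites were picked for their scores after these were seen, and the ratios have no error because each list is 1 library.

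**Figure D3:**
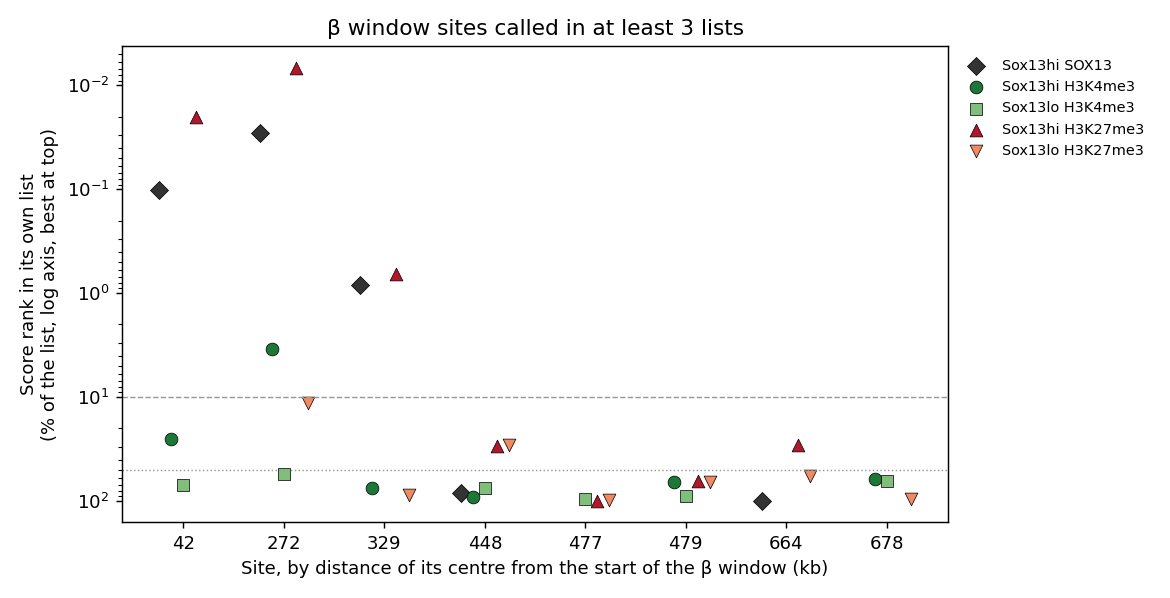
Score rank, as a percentage of its own list on a log axis with the best at the top, at the 8 sites of the β window called in at least 3 lists. Each point is 1 list at 1 site, sites are ordered by distance from the window's start in kb, and dashed and dotted lines mark 10% and 50%. The sites at 42, 272 and 329 kb have SOX13 and Sox13hi H3K27me3 points above 1%, whereas every Sox13lo point lies below the 10% line.

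These sites were also compared with the other high peaks of the same lists. Of the 100 highest Sox13hi H3K27me3 peaks, 3 were in the windows, and these are the 3 sites above. In that set of 100, 1 had no overlapping Sox13lo H3K27me3 peak, the one at 40841651. A further 2 overlapped a Sox13lo peak from the lower 50% of its list, and the site at 41128501, whose partner stood at 88.3%, was among them. The median partner stood at 1.68% of the Sox13lo list, and 16 of the 100 had a partner outside its top 10%, as the site at 41071301 did. Of the 1000 highest Sox13hi H3K4me3 peaks, 3 had a partner in the lower 50% of the Sox13lo list, the site at 41071301 among them, and 2 had no partner. The highest H3K27me3 peaks were otherwise broad. Both β peaks among the 20 highest were 600 bp wide, and the other 18 were 1750 to 4550 bp. Of the 20 highest SOX13 peaks, 5 overlapped 1 of the 20 highest Sox13hi H3K27me3 peaks, 2 of them in β and 3 on chromosome Y.

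The other β sites called in 3 or more lists, 4 in number, had no peak in the top 10% of any list. The site at 41278501 to 41279549 had all 4 histone peaks, with H3K4me3 scores of 18 in Sox13hi and 9.75 in Sox13lo and H3K27me3 scores of 10.8 and 14.5, and no SOX13. Its Sox13lo H3K4me3 peak, 41279201 to 41279549, touched neither H3K27me3 peak. They are joined because the Sox13hi H3K4me3 peak spans them. The site at 41463301 had H3K27me3 in both populations (25.0 and 18.3) and SOX13 at a score of 3, rank 13714.5 of 13807. The site at 41276351 had weak H3K27me3 in both (2 and 3.50) and Sox13lo H3K4me3 (6.25). The site at 41477301 had H3K4me3 in both populations and Sox13lo H3K27me3 at 5.25. The best rank among them was that of Sox13hi H3K27me3 at 41463301, at 29.0% of its list.

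H3K4me3 in both populations outlined a few positions per locus. In β, broad peaks stood at 41473651 to 41475249, with scores of 62.0 in Sox13hi and 59.0 in Sox13lo, and at 41068201 to 41069699, with 47.0 and 52.0. The first opens a group of H3K4me3 peaks that also had 21.3 and 32.0 at 41477301 and 12 and 5.50 at 41478551, and that ended with a Sox13hi peak at 41479501 to 41479999. No list had a peak from there to the end of the window. The next peak, Sox13hi H3K4me3 with a score of 108 at 41554401, lay 4.4 kb outside it. Whether the knockout allele removes this empty stretch cannot be read from a peak list.

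In α/δ the highest H3K4me3 peak of either population was at 54744551 to 54746749. It was 2150 bp wide with a score of 71.5 in Sox13hi (rank 6010) and 2200 bp wide with 100 in Sox13lo (rank 5785). It lay in a group of 6 sites between 54741501 and 54748249. The first of these, 54741501 to 54741899, was a Sox13hi H3K27me3 peak with a score of 7 and no H3K4me3. Next in score were 54873001 to 54874249, with 60.5 and 89.0, and 52935101 to 52936399, near the start of the window, with 55.5 and 70.5. Further H3K4me3 peaks of both populations lay at 54878551 (45.8 and 34.3), 52924101 (37.5 and 45) and 54414901 (17.8 and 13.3). Those at 52924101, 52935101, 54873001 and 54878551 were near the ends of the window. Whether they belong to TCR segments or to flanking genes was not tested. None of the H3K4me3 peaks named here overlapped a SOX13 or H3K27me3 peak.

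SOX13 overlapped H3K4me3 in α/δ at 1 site. SOX13 peaks at 54768151 to 54768399 (score 6.25) and 54768501 to 54768799 (score 8.50, rank 5090) both overlapped the Sox13hi H3K4me3 peak at 54768201 to 54768949, which scored 25.0. Another SOX13 peak lay at 54766201, with a score of 7.25. Elsewhere in the window the SOX13 peak at 54717851 to 54718099 (score 3.50) lay close to, without touching, the Sox13hi H3K4me3 peak at 54717151 to 54717749 (score 7.50). This SOX13 peak, rank 13685.5 of 13807, overlapped the Sox13hi H3K27me3 peak at 54717801 to 54718099 (score 4.75). At the site where SOX13 overlapped H3K4me3, 54768151 to 54768949, Sox13lo H3K4me3 had no peak. Its nearest one began at 54770001, with a score of 10.5. The highest-scoring SOX13 peak of the window, at 53152901 to 53153199, scored 9 (rank 4346) and had no histone peak.

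**Figure D4:**
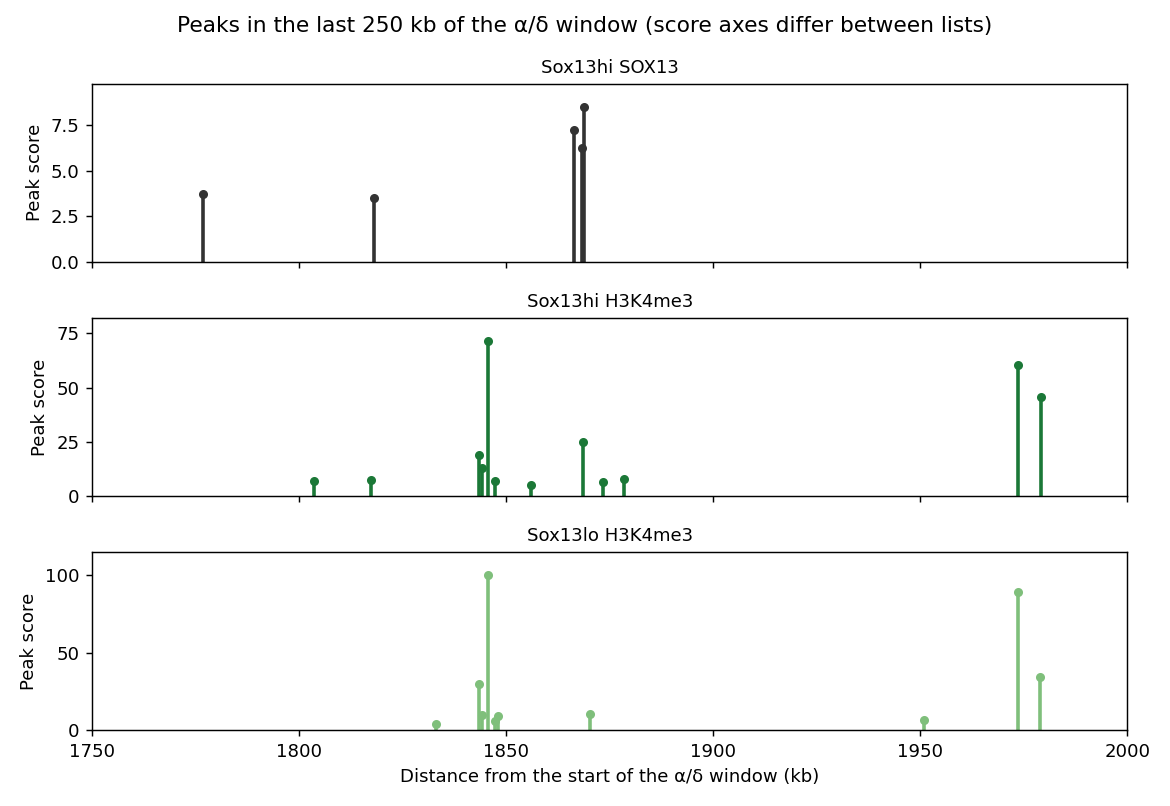
Peak score (vertical axis, a separate scale per list) against distance from the start of the α/δ window in kb, for the last 250 kb, in the SOX13 and both H3K4me3 lists. Each line with a dot is 1 peak. Both H3K4me3 lists are highest near 1846 kb and again near 1974 kb, and 3 SOX13 peaks stand together near 1868 kb, beside a Sox13hi H3K4me3 peak with a score of 25.0.

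In γ, 1 H3K4me3 site was shared by the populations, at 19487101 to 19488099, with scores of 71.3 in Sox13hi (rank 6029) and 85.8 in Sox13lo (rank 6842). It was the last site of the window, 11.9 kb from its end. Whether it belongs to a TCR segment or to a flanking gene was not tested. The remaining H3K4me3 peaks were weak and did not overlap. In Sox13hi they were at 19276801 (8), 19428701 (9) and 19431651 (11.0), and in Sox13lo at 19269851 (16.5), 19435901 (13), 19440651 (3.75) and 19448951 (11.5). The best rank among the 7 was at 78.6% of its list. SOX13 peaks were at 19450251 to 19450699 (score 11.5, rank 2278), 19458301 (7) and 19363351 (4.75). The last overlapped the only H3K27me3 peak of the window, in Sox13hi at 19363401 to 19363549, with a score of 5.25. The best-ranked SOX13 peak of γ, in the top 16.5% of its list, had no histone peak.

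The populations were compared by overlap within each mark. Of the H3K4me3 peaks in the windows, 18 of 34 in Sox13hi (52.9%, 95% exact binomial interval 35.1 to 70.2%) met a Sox13lo peak, against 69.7% of the whole list. In the other direction 18 of 35 (51.4%, 34.0 to 68.6%) did, against 78.1%. Overlap rose with score in the whole lists, and most members ranked low. In the top 50% of the lists all 10 Sox13hi and all 5 Sox13lo members overlapped, against 99.3% and 99.8% of the lists. In the lower 50%, 8 of 24 (33.3%, 15.6 to 55.3%) and 13 of 30 (43.3%, 25.5 to 62.6%) did, against 40% and 56.3%. In both parts of the lists the whole-list share lay inside the interval of the members. In these shares a partner could be any peak of the other list, whatever its score. With both lists cut to their top 50%, 5 of 10 Sox13hi and 5 of 5 Sox13lo members overlapped. Whole-list shares for that cut were not computed.

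For H3K27me3, 7 of 37 Sox13hi peaks (18.9%, 7.96 to 35.2%) overlapped a Sox13lo peak, against 24.5% of the list, and 6 of 23 Sox13lo peaks (26.1%, 10.2 to 48.4%) a Sox13hi peak, against 49.1%. All of these were in β, where the shares were 7 of 20 (35.0%, 15.4 to 59.2%) and 6 of 14 (42.9%, 17.7 to 71.1%). In α/δ none of 16 Sox13hi peaks and none of 9 Sox13lo peaks overlapped the other population's list (upper limits 20.6% and 33.6%). Over all windows, 4 of 7 Sox13hi and 2 of 3 Sox13lo members in the top 50% of their lists overlapped, against 42.9% and 72.3% of the lists there. With both lists cut to their top 50%, 2 of 7 Sox13hi and 2 of 3 Sox13lo members overlapped. At 54614901 and 54615051 a peak of each population adjoined without overlap. All but 1 of the 25 α/δ peaks were in the lower 50% of their lists, where 6.2% of Sox13hi and 25.8% of Sox13lo peaks of the whole lists overlapped, values inside the members' intervals of 0 to 21.8% and 0 to 33.6%. When the longer H3K27me3 list was cut by score to the length of the shorter one, 7 Sox13hi peaks were left in the windows, 6 of them in β and 1 in α/δ, against 23 in Sox13lo, and 4 of the 7 (57.1%) overlapped. The larger Sox13hi count of the deposited lists therefore turned when the lists were made equally long, a cut that removed low-scoring peaks from the Sox13hi list only. With each list cut to its top 50%, the order was kept, with 7 Sox13hi and 3 Sox13lo peaks.

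**Figure D5:**
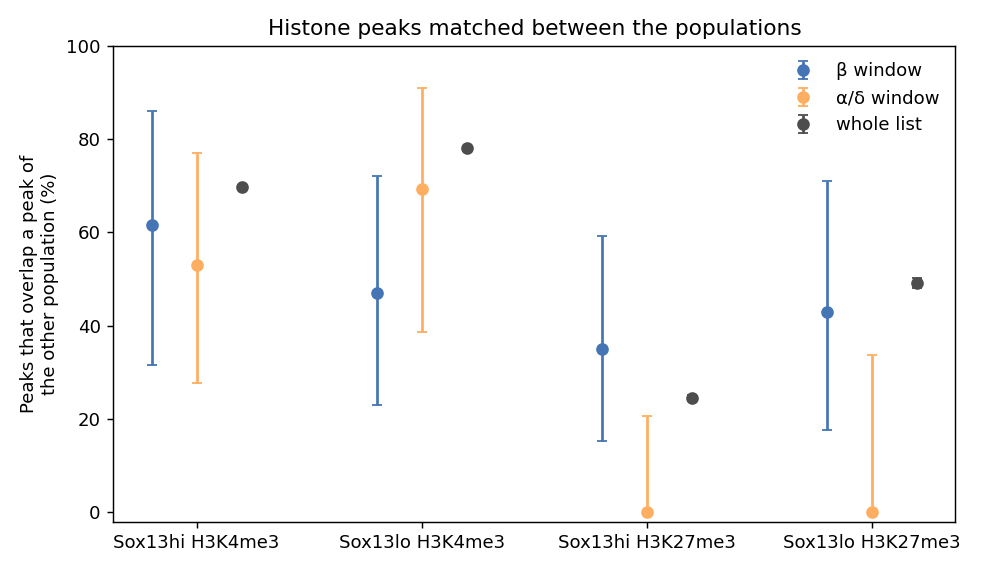
Share of histone peaks (%) that meet a peak of the same mark in the other population, in the β window, the α/δ window and the whole list. Points are shares and bars 95% exact binomial intervals. No H3K27me3 peak of the α/δ window overlaps, and the interval of each β share includes the share of the whole list except for Sox13lo H3K4me3, at 47.1% (23.0 to 72.2%) against 78.1%. Of those 17 β peaks, 1 is in the top 50% of its list. The share in the lower 50% of that whole list, 56.3%, lies inside the interval.

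In all, 4 histone peaks in the top 50% of their list had no peak of the other population for that mark within 5 kb, and all were H3K27me3. In Sox13hi these were the β peaks at 40841651 (score 857) and 41101951 to 41102349 (18.3, rank 6000), and in α/δ the peak at 52948551 to 52949049 (34.3, rank 3063.5). In Sox13lo it was the β peak at 41142101 to 41142849 (34.3, rank 2610.5), which met a SOX13 peak of Sox13hi cells that scored 7.50. No H3K4me3 peak of the windows met this rule. Within 5 kb, 22 of 34 Sox13hi and 22 of 35 Sox13lo H3K4me3 peaks had a neighbour, against 75.8% and 84.1% of the lists, and for H3K27me3 10 of 37 and 10 of 23, against 43% and 74.5%.

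SOX13 peaks of the windows lay on H3K27me3 more often than those of the whole list. In Sox13hi 7 of 27 overlapped H3K27me3 (25.9%, 11.1 to 46.3%), against 3.7% of all SOX13 peaks, and the same number overlapped Sox13lo H3K27me3, against 3.17%. Of these, 5 and 6 were in β, 1 and 1 in α/δ and 1 and none in γ. H3K4me3 was overlapped by 5 (18.5%, 6.30 to 38.1%) in Sox13hi, against 14.2%, and by 3 (11.1%, 2.35 to 29.2%) in Sox13lo, against 12.8%. Without the sites called in all 5 lists, which removes such overlaps by construction, 5 of 25 (20%) overlapped H3K27me3 in each population. These 25 still held the high-scoring SOX13 peaks at 40841801 and 41128951. The share of the whole list after this removal was not computed, so the 20% has no matching background. No histone peak of any list was met by 15 of the 27 (55.6%, 35.3 to 74.5%), against 82.2% of the list. Both H3K27me3 intervals lie above the whole-list shares. However, the members on Sox13hi H3K27me3 included the 3 highest-scoring SOX13 peaks of the windows, on which the loci were selected. Of these 3, the members on Sox13lo H3K27me3 included those at 41071751 and 41128951, but not that at 40841801.

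H3K27me3 and H3K4me3 of the same population overlapped at 6 of 37 Sox13hi H3K27me3 peaks (16.2%, 6.19 to 32.0%) and 4 of 23 Sox13lo peaks (17.4%, 4.95 to 38.8%), against 22.1% and 38.6% of the lists. In α/δ this was so for 1 Sox13hi peak, at 54555801 to 54556149 with a score of 7.75, and no Sox13lo peak. In β it was so for 5 of 20 and 4 of 14. The interval for Sox13lo over all windows reaches the whole-list share, and that for Sox13hi includes it.

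The distance of peaks from the window edges varied. The nearest peaks inside and outside the start of β were SOX13 peaks at 40837301 (score 6.25) and 40747801 (6.00). The start of α/δ fell between Sox13lo H3K4me3 peaks at 52898351 (81.8) and 52924101 (45), the first 0.201 kb outside. Its end fell between Sox13hi H3K4me3 at 54878701 (45.8) and Sox13hi H3K27me3 at 54935351 (8.50). For γ the nearest peaks outside were Sox13hi H3K27me3 at 19195201 (4.75) and 19639151 (8), and those inside were the Sox13lo H3K4me3 peaks at 19269851 and 19487101.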

How the data were processed

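Each peak list holds 1 library, and gives each peak's position and score as the authors deposited them. Positions are on mm9 per the submitters' processing notes. The aligner, peak caller, thresholds and the score's definition were not given in the sources used here, and neither is sequencing depth, so the precision of single peaks is unknown. All deposited starts were on a 50 bp grid and all ends 1 bp short of it. Starts are printed counting from 1, ends as deposited, and widths include the last base.

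A peak belonged to a window if 1 bp touched it. Ranks used the whole list, with ties at their mean rank. Chromosome length was taken from the first to the last peak of any list. Shares have 95% exact (Clopper-Pearson) binomial and counts exact Poisson intervals. The loci, the sub-regions and the rule for named sites were chosen with earlier results of these data known. That rule names sites called in all 5 lists, the 3 highest peaks per list and window, histone peaks of the top 50% without a neighbour within 5 kb, and peaks at window edges. Other named peaks, and the removal of sites called in all 5 lists, were chosen after seeing values. The overlap code gave back 5 planted quantities on simulated data and equalled bedtools 2.31.1 for 8 pairs of lists. Python 3.11.15, NumPy 2.4.6, pandas 2.3.3, SciPy 1.17.1 and matplotlib 3.10.9 were used.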

Additional observations from a re-analysis of the deposited data

How the results depend on the processing

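Of 137 values under alternative settings, 105 stayed within 1.5 times the count or inside the share's interval and 32 moved. With each list cut to its top 50% by score, the windows held 8 SOX13 peaks, 10 Sox13hi and 5 Sox13lo H3K4me3 peaks, and 7 Sox13hi and 3 Sox13lo H3K27me3 peaks. In that setting 0 sites were called in all 5 lists, and 100% (5 of 5) of Sox13lo H3K4me3 and 66.7% (2 of 3) of Sox13lo H3K27me3 peaks were matched. For Sox13hi these shares were 50% (5 of 10) and 28.6% (2 of 7). The share of SOX13 peaks on Sox13lo H3K4me3 was 0 (0 of 8). With lists of equal length the windows held 7 Sox13hi H3K27me3 peaks, 57.1% of them matched, and 1 site called in all 5 lists. Sox13hi H3K4me3 counts fell there from 13 to 8 in β and from 17 to 11 in α/δ, below the 13 of Sox13lo. Both settings remove low-scoring peaks, which most members are. An overlap of 50% of the shorter peak, merging within 1 kb, a 5 kb match and leaving out sites called in all 5 lists moved none of the values they were run for. Widening the windows by 100 kb moved 1, the Sox13hi H3K27me3 count in γ, from 1 to 3. No paired analysis was possible because there is only 1 library per group. The unknown depth limits all counts, since a peak missing from a list may lie just under its threshold.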
